A study of Homo sapiens with 12 samples.

Results

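The nuclear-encoded genes of oxidative phosphorylation were taken by name from the 2 tables the authors deposited. Genes whose symbol begins with NDUFA, NDUFB, NDUFC, NDUFS, NDUFV, UQCR, COX4, COX5, COX6, COX7, COX8 or ATP5 were chosen, together with SDHA, SDHB, SDHC, SDHD and CYC1. Symbols with a hyphen (5) and pseudogenes (3) were left out. This gave 95 genes of 26485, of which 86 are subunits of complexes I to V, with 37 in complex I, 4 in complex II, 10 in complex III, 19 in complex IV and 16 in complex V. The name rule also caught 7 assembly factors of complex I (NDUFAF1 to NDUFAF7) and the genes ATP5S and ATP5SL, which are no subunits of the synthase despite their names. NDUFA4 and NDUFA4L2, named after complex I, were counted with complex IV, where the NDUFA4 protein is now placed, and COX7A2L, a factor that joins respiratory complexes, was counted there too. All 95 genes were found in the GENCODE release 29 annotation of GRCh38.

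The cells were HEK293T, an established human embryonic kidney line. They were transfected with polyethylenimine and a plasmid of the PX330-GFP type, which all 4 groups received, so the controls also carried plasmid, GFP and a guide RNA. The plasmid held an sgRNA named 6T or an sgRNA named for luciferase, each in a version with Cas9, the nuclease that cuts DNA where the sgRNA directs it, and a version without, which gave 4 groups of 3 samples. PolyA RNA was sequenced, and each table compares a condition A with a condition B under 1 sgRNA. The table headers do not say whether A or B held Cas9, and condition A of one table need not be the condition called A in the other. The groups are therefore called 6T A, 6T B, Luciferase A and Luciferase B. Whether the 3 samples of a group came from separate cultures is not stated in the labels. The p-values here set a difference between groups against the spread of these samples, which may be only technical.

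Oxidative phosphorylation takes place in the inner mitochondrial membrane. Complexes I and II feed electrons from NADH and succinate to ubiquinone, complex III passes them to cytochrome c, complex IV passes them to oxygen, and complex V uses the proton gradient built by complexes I, III and IV to make ATP. Complexes I, III, IV and V combine subunits encoded in the nucleus with subunits encoded in mitochondrial DNA, while complex II is nuclear throughout. The 13 mitochondrially encoded subunits have no values in the tables and were not analysed here. Nuclear factors with sites in many of these promoters include NRF1, ETS family proteins such as GABPA, SP1 and YY1.

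Reads on genes ranged from 5892029 to 8294722 over the libraries of 6T A, 6T B and Luciferase A. In Luciferase B they ranged from 19453197 to 37878334. Under the luciferase sgRNA depth and condition therefore cannot be told apart, and in condition B depth and sgRNA cannot either. The difference between the sgRNAs in the change from A to B shares this limit. The libraries of a condition are numbered 1 to 3 by size factor (6T A1, for instance), and this number ties them to no sample. The tables' normalization is shared, so levels were also compared between tables. Values are normalized counts, which are reads divided by the library's size factor, unless stated otherwise. Luciferase A3 stood apart from the other libraries. Over all genes it had a Spearman correlation of 0.73 between a gene's deviation from its mean over libraries and the GC content of its transcript, and 6T A2 had −0.63 in the opposite direction. Markers of epithelium and embryonic kidney summed to 2285 to 2888 per library, while PAX8 was near 0. Blood cell markers summed to 29.3 to 65.2, with PTPRC, CD3E, LYZ and HBB near 0.

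Genes for the sequences below were chosen from members with a small p between the sgRNAs in condition A, as reported further on. Not every such member is shown. That difference moved with GC content, so the choice partly set the contrast among these genes, which is an illustration and no test. The sequences below show a property with which the members' deviations in single libraries moved, the share of G and C in the transcript. Each is bases 201 to 320 of the coding sequence, 5′ to 3′, from the GENCODE release 29 transcripts of GRCh38, with G and C in capitals. ATP5F1 (current symbol ATP5PB, chr1:111448864-111462773) encodes subunit b of the peripheral stalk of complex V and had 51 G or C bases in the stretch (42.5%). NDUFA12 (chr12:94897055-95003770), an accessory subunit of complex I, had 54 (45%), COX5B (chr2:97646040-97648383), a complex IV subunit, had 60 (50%), and NDUFS7 (chr19:1383527-1395589), a core subunit of complex I that carries an iron-sulfur cluster, had 81 (67.5%).
ATP5F1: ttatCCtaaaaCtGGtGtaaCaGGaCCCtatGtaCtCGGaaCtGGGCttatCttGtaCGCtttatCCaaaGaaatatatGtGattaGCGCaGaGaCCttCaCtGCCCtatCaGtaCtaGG
NDUFA12: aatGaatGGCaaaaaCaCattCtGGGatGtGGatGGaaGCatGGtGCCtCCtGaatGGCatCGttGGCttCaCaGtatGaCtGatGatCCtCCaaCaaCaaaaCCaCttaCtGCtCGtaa
COX5B: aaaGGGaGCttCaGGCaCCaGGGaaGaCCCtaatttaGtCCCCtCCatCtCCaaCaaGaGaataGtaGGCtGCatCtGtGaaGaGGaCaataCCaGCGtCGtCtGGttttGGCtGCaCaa
NDUFS7: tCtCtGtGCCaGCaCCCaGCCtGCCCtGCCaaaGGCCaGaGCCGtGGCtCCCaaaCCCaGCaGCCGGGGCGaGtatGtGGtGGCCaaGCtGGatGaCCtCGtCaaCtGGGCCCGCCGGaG
Over whole transcripts GC content was 45.4% in ATP5F1, 43.7% in NDUFA12, 52.0% in COX5B and 66.5% in NDUFS7. The members ranged around a median of 50.6%, beside 50.5% over all genes tested, and their transcripts were short, with a median of 753 bases beside 2286.

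Promoters were read from RefSeq (GRCh38.p14) as windows of 300 bases, 250 before and 50 after the start, and matched 74 of the 95 genes. Motifs of the factors named above were searched in them on both strands. The YY1 motif AAGATGGC was in 11 of 74 member promoters (14.9%), beside 3.03% of all 27305 promoters, and its 11 genes included ATP5F1, ATP5J and ATP5O of the peripheral stalk and NDUFS7. The ETS motif CCGGAAGT was in 9 (12.2%, beside 4.44%), among them ATP5H, COX5B, NDUFS1, SDHD and UQCRQ, and so in members of all 5 complexes. The NRF1 motif CGCATGCG was in 11 (14.9%, beside 2.19%), among them ATP5C1, ATP5J, NDUFA8, NDUFS7 and SDHD. The SP1 motif GGGCGG was in 41 (55.4%, beside 44.6%), the letters CCAAT were in 27 (36.5%, beside 35.7%) and TATAAA was in 7 (9.46%, beside 12%). The member promoters had a median GC content of 60.7%, beside 58.3% over all, and GC-rich motifs are met more often in GC-rich windows. A match is a run of letters and not a measured binding site. The 150 bases before the start of ATP5H (current symbol ATP5PD, subunit d of the stalk, chr17:75046970-75047119, minus strand) hold ETS, SP1 and CCAAT letters, and those before COX5B (chr2:97645912-97646061, plus strand) hold ETS and SP1 letters, which adjoin without a shared base in its last capitals. Matches on either strand are in capitals.
ATP5H: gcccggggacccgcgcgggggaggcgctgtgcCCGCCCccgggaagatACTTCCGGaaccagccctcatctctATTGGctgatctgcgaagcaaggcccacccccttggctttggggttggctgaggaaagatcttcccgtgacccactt
COX5B: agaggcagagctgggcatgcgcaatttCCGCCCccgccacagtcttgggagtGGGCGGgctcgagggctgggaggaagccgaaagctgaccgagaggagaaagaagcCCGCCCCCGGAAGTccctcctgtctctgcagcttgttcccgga

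Members were among the more abundant transcripts of these cells. Levels between genes are compared as the normalized count per kb of transcript. Averaged over the 4 groups, 89 of the 95 genes reached a normalized count of 10, as did 14078 genes in all. Their median level was 1419.7 per kb, beside 126 over all genes at that minimum. Medians per kb were 1059 in complex I, 1277 in complex II, 1876 in complex III, 2312 in complex IV and 2424 in complex V, and 135 in the assembly factors NDUFAF1 to NDUFAF7.

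**Figure D1:**
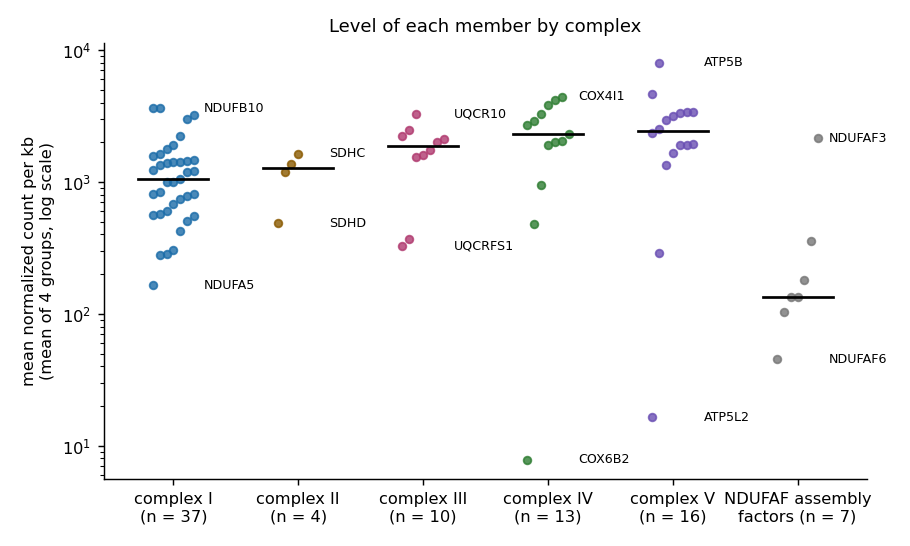
Mean normalized count per kb of transcript over the 4 groups (log scale) for the subunits and NDUFAF genes with a mean of 10 or more, by complex. Each point is a gene and each black line a median; complex V has the highest median (2424) and ATP5B (8042) lies above all other members.

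Each complex held a wide range of levels, which depend on the transcript length taken for each gene. In complex I the highest was NDUFB10 (3628 per kb), an accessory subunit of the membrane arm, and the lowest was NDUFA5 (164 per kb), an accessory subunit next to the quinone-binding part. In complex II the range ran from SDHD, a membrane anchor (488 per kb), to SDHC, the other anchor (1635 per kb). In complex III it ran from UQCRFS1, the Rieske iron-sulfur protein (327 per kb), to UQCR10 (3291 per kb). In complex IV COX4I1 was highest (4436 per kb), and in complex V ATP5B, the catalytic beta subunit, was highest (8042 per kb) while ATP5L2, a copy of ATP5L, was at 16.5 per kb.

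Of paired isoforms in complex IV, HEK293T cells expressed 1 member nearly alone. COX4I1, COX6A1, COX6B1, COX7A2, COX7B and COX8A took between 99.6% and 100% of their pair's normalized counts per kb in each of the 12 libraries. Their partners, known from lung, muscle or testis, had few reads over the 12 libraries, namely 2 for COX4I2, 1 for COX6A2, 211 for COX6B2, 8 for COX7A1 and 20 for COX8C. COX7B2 had 0 reads in every library, which allows up to 3 reads over each library's total and covers counting error only. NDUFA4 took 96.8% to 99.4%, and its hypoxia-related relative NDUFA4L2 had 120 reads. The c subunit of complex V was spread over 3 genes that encode the same mature protein, with 19.8% to 24.2% from ATP5G1, 35.1% to 43.7% from ATP5G2 and 34.7% to 44.3% from ATP5G3. These shares per kb depend on the transcript length taken for each gene.

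In each library the 95 genes took between 1.18% and 1.28% of the reads on genes. The share was 1.24%, 1.25% and 1.24% in the 6T A libraries, 1.27%, 1.28% and 1.26% in 6T B, 1.25%, 1.26% and 1.28% in Luciferase A and 1.18%, 1.28% and 1.24% in Luciferase B. The 6T B libraries all lay above the 6T A libraries, by a difference of means of 0.0281 percentage points, and the Luciferase groups overlapped. Complex V held the largest part of it (0.396% to 0.442% per library), followed by complex I (0.339% to 0.388%). Complex I was lower in the 6T A libraries (0.348% to 0.356%) than in the Luciferase A libraries (0.368% to 0.388%), and complex V was higher there in each library (0.428% to 0.442% against 0.407% to 0.425%). In bulk RNA, fewer cells of a type and less RNA per cell cannot be told apart.

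**Figure D2:**
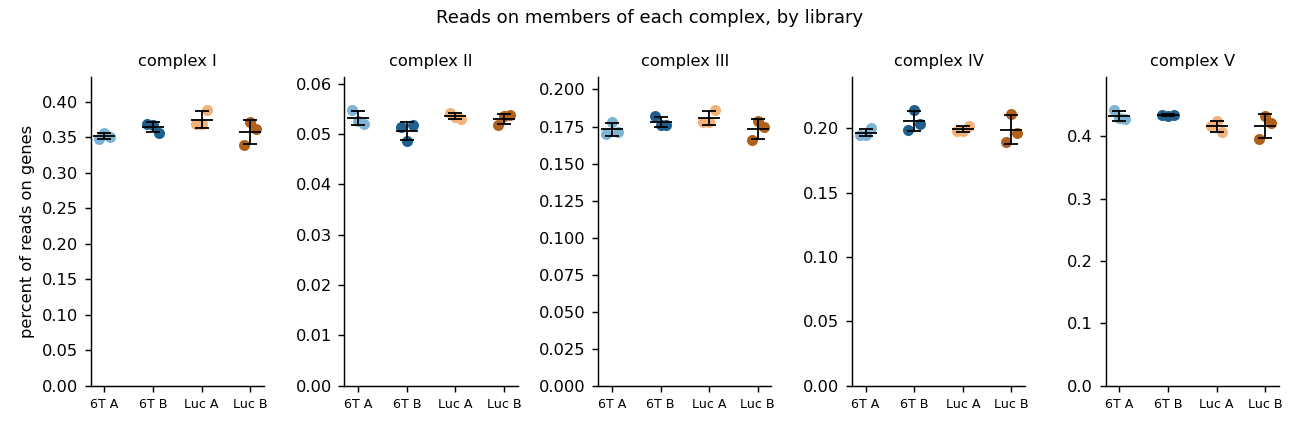
Percent of a library's reads on genes that fell on members of complexes I to V, by group (Luc is Luciferase). Points are libraries and bars are mean and SD of 3; complex I lies higher and complex V lower in Luciferase A than in 6T A, without overlap, and complex II runs from 0.0485% to 0.0547%.

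Most members varied little over the 12 libraries. The SD of the log2 normalized count had a median of 0.134 over the 89 members, beside 0.205 over all genes tested. Since abundant genes vary less, the 78 members with a mean of 250 or more were also set beside all genes at that mean, with medians of 0.124 and 0.157. An SD under 0.2 was found in 67 members and one over 0.3 in 8. ATP5B stood at 15988, 14926 and 14351 normalized counts in 6T A, 15135, 13952 and 14492 in 6T B, 15300.2, 15168 and 15145 in Luciferase A and 13343, 14701 and 14967 in Luciferase B. The most variable was UQCRB, an accessory subunit of complex III, at 630, 1729.8 and 1058 in 6T A, 868, 1079 and 1341 in 6T B, 618, 735 and 309 in Luciferase A and 1119, 951 and 628 in Luciferase B. UQCRB spread widely inside each group, while ATP5B stayed within a narrow band in all of them.

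No member passed the authors' test between conditions A and B under either sgRNA. In the authors' deposited DESeq table for 6T, 8 of 19246 genes tested had an adjusted p under 0.05 (0.0416%) and 167 an unadjusted p under 0.05 (0.868%). Of the 93 members tested there, 0 passed either threshold. In the authors' deposited table for luciferase, 0 of 20194 genes had an adjusted p under 0.05 (0%) and 246 an unadjusted p under 0.05 (1.22%), and again 0 of 93 members passed either. The median log2 fold change of B over A was 0.01 over the 90 members with a mean of 10 or more in the 6T table and −0.03 over 89 in the luciferase table, beside −0.03 and −0.01 over all genes at that minimum. Of these members 46 of 90 were higher in B under 6T and 39 of 89 under luciferase.

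With limma on the recovered reads of the single libraries, the adjusted threshold again gave 0 members, and more genes had a low unadjusted p than in the authors' tables. Under 6T, 0 members had an adjusted p under 0.05 (0% of all genes) and 2 of 90 an unadjusted p under 0.05 (2.35% of all genes), COX7C and NDUFS7. Under luciferase it was again 0 members (0% of all genes) at the adjusted threshold and 7 of 89 at the unadjusted one (9.57% of all genes). These were NDUFS7, NDUFS8, NDUFB8 and CYC1, lower in B, and NDUFA12, NDUFAF6 and UQCRB, higher in B, before adjustment. Of these 7, 0 were still at that p without Luciferase A3 or B1, and 2 were without B2. Without A1 4 were still at it, and 5 without A2 or without B3. Of the 2 under 6T, COX7C was still at it without A3, and 0 were without any other library. These differences moved with GC content. The limma log2 difference of Luciferase B against A had a Spearman rho of −0.75 with the GC content of the transcript over the 89 members (−0.68 over all genes), and that of 6T B against A one of 0.40 over 90. With a correction for GC content in limma, UQCRB (0.46) was the only one of the 7 still at an unadjusted p under 0.05, and 0 of the 2 under 6T were. Counted anew, 7 members were at that p under luciferase (7.92% of all genes) and 4 under 6T (1.90% of all genes). NDUFS7 then differed by 0.12 under 6T and by −0.16 under luciferase (limma adjusted p = 0.609). The correction turned the sign of 20 of 90 members under 6T and of 18 of 89 under luciferase, none of which had an unadjusted p under 0.05 before it. The 95% interval of the fold change lay within 1.5-fold in both directions for 81 of 90 members under 6T and for 71 of 89 under luciferase, with a median standard error of 0.10 (log2) in each.

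**Figure D3:**
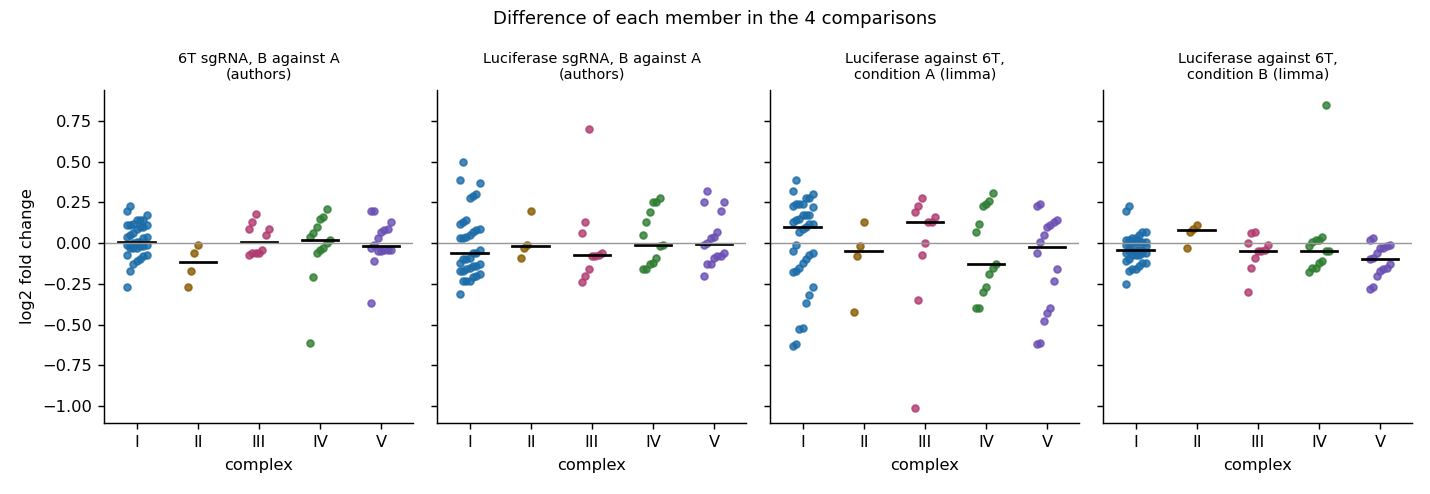
Log2 fold changes of the members with a mean of 10 or more, by complex, for B over A under each sgRNA (authors' values) and for Luciferase over 6T in each condition (limma). Points are genes and black lines medians. In the panel for B over A under 6T the medians lie near 0, between −0.12 (complex II) and 0.02 (complex IV). Points spread most in condition A.

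Among the core subunits of complex I, which carry electrons from NADH to ubiquinone, NDUFS7 had the smallest p under both sgRNAs. It stood at 585, 632 and 652 normalized counts in 6T A, 778, 702 and 705 in 6T B, 792, 731 and 937 in Luciferase A and 612, 692 and 675 in Luciferase B. The 6T B libraries lay above all 6T A libraries, and the Luciferase B libraries lay below all Luciferase A libraries. The group means were 623 ± 34.2, 729 ± 43.1, 820 ± 106 and 660 ± 42.0 (SD, n = 3 each). In the authors' deposited tables the log2 fold change of B over A was 0.23 under 6T (p = 0.135, DESeq) and −0.31 under luciferase (p = 0.0970, DESeq), with an adjusted p of 1.00 in both.

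The other core subunits differed less under 6T. NDUFS8, the neighbour of NDUFS7 in the chain of iron-sulfur clusters, ranged from 1058 to 1261 normalized counts in 6T A, 1178 to 1338 in 6T B, 1366 to 1538 in Luciferase A and 1079.7 to 1322 in Luciferase B. Its Luciferase B libraries all lay below Luciferase A (log2 −0.23, p = 0.203 in the authors' deposited table). NDUFS3 differed by −0.01 (log2) under 6T and by −0.06 under luciferase in the authors' deposited tables, and by 0.02 under luciferase with the GC correction in limma. In the NADH-binding part, NDUFV1, which holds the flavin, differed by 0.10 and −0.20, NDUFV2 by 0.14 and 0.12, and NDUFS1, the largest subunit of complex I, by −0.02 and 0.30 in the authors' deposited tables. None of these passed the test. In limma the luciferase values of NDUFV1, NDUFV2 and NDUFS1 were −0.20, 0.16 and 0.34. Without Luciferase A3 they were −0.10, −0.06 and 0.09.

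Among the accessory subunits of complex I, NDUFA12 stood at 593, 719 and 491 normalized counts in 6T A, 547, 522 and 599 in 6T B, 451, 447 and 279 in Luciferase A and 498, 540 and 500 in Luciferase B. Its Luciferase B libraries lay above all of Luciferase A, and its 6T groups overlapped. The authors' deposited log2 fold change was 0.39 under luciferase (p = 0.110) and −0.11 under 6T (p = 0.467). In limma the luciferase value of NDUFA12 was 0.42, 0.19 without Luciferase A3 and 0.24 with the GC correction. Under 6T the accessory subunits with the smallest p were NDUFC2 (log2 −0.27, p = 0.137) and NDUFB7 (log2 0.20, p = 0.186) in the authors' deposited table. NDUFC2 ranged from 154 to 205 in 6T A and from 119 to 167 in 6T B, which overlap, while NDUFB7 ranged from 616 to 673 and from 661 to 808, which overlap too.

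All 4 genes of complex II, which joins the citric acid cycle to the respiratory chain, had a lower mean in 6T B than in 6T A, with a median log2 fold change of −0.12 and 0 past the test. SDHB had the opposite sign with the GC correction. SDHC had the smallest p of the 95 genes in that table. It stood at 996, 845 and 772 normalized counts in 6T A, 720, 654 and 795 in 6T B, 706, 766 and 504 in Luciferase A and 738, 830 and 699 in Luciferase B. The 6T groups overlapped in 1 library of each, and the Luciferase groups overlapped as well. The authors' deposited log2 fold change was −0.27 under 6T (p = 0.0771, adjusted p = 1.00) and 0.20 under luciferase (p = 0.358). Leaving out 1 library at a time moved the 6T value of SDHC between −0.35 and −0.16.

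SDHD was at 458, 436 and 438 in 6T A and at 380, 405 and 399 in 6T B, without overlap, for a log2 fold change of −0.17 (p = 0.297) in the authors' deposited table. Its Luciferase groups, from 365 to 464 and from 393 to 436, overlapped. The catalytic subunits differed less under 6T. SDHA, the flavoprotein that oxidises succinate, differed by −0.06 and −0.09 (log2) under 6T and luciferase, and SDHB, its iron-sulfur partner, by −0.01 and −0.03 in the authors' deposited tables. As a share of reads on genes, complex II held 0.0520% to 0.0547% in 6T A and 0.0485% to 0.0517% in 6T B.

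In complex III the genes lay close to no difference under 6T, with log2 fold changes from −0.07 (UQCRH) to 0.18 (UQCRHL) in the authors' deposited table. UQCRHL is a near copy of UQCRH, so reads that match both genes may be left out of the counts and both values are uncertain. UQCRQ, a small subunit near the quinone-binding site, was at 1239, 1264 and 1215 in 6T A and at 1346, 1359 and 1357 in 6T B, without overlap, with a log2 fold change of 0.13 in the authors' deposited table (p = 0.413). Under luciferase 7 of 10 genes were lower in B, with a median of −0.08. CYC1, which encodes cytochrome c1, was at 2862, 2743 and 3317 in Luciferase A and at 2349, 2596 and 2608 in Luciferase B, without overlap (log2 −0.24, p = 0.179 in the authors' deposited table). UQCRB had the highest fold change of complex III in the authors' luciferase table (log2 0.70, p = 0.197), and its groups overlapped. Its limma value was 0.75, and 0.37 without Luciferase A3.

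The other members of complex III showed smaller differences. The core proteins UQCRC1 and UQCRC2, which frame the matrix side of the complex, differed by 0.09 and −0.06 under 6T and by −0.20 and 0.13 under luciferase. UQCRFS1 differed by −0.06 and 0.06, UQCR10 by −0.04 and −0.16 and UQCR11 by 0.09 and −0.08, all as log2 fold changes in the authors' deposited tables.

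In complex IV, COX7C stood at 1516, 1606 and 1361 normalized counts in 6T A, 1267, 1268 and 1335 in 6T B, 1364, 1299 and 1368 in Luciferase A and 1344, 1344 and 1291 in Luciferase B. Its 6T B libraries lay below all 6T A libraries, and the authors' deposited log2 fold change was −0.21 (p = 0.140). COX4I1, which binds the regulators ATP and ADP, was at 3206, 3237 and 3193 in 6T A and 3584, 3737 and 3411 in 6T B, without overlap (log2 0.16, p = 0.287 in the authors' deposited table). COX5B, a subunit on the matrix side, was at 1206, 1285 and 1306 in 6T A and at 1294, 1611 and 1477 in 6T B, with overlap (log2 0.21, p = 0.186 in the authors' deposited table). Under luciferase the smallest p were those of COX7B (log2 0.28, p = 0.203), COX7A2 (log2 0.25, p = 0.248) and NDUFA4 (log2 0.25, p = 0.251) in the authors' deposited table, and the libraries of all of these overlapped between A and B. With the GC correction in limma NDUFA4 differed by −0.04. Without Luciferase A3 the limma value was 0.11 in COX7B (0.30 with it) and 0.07 in COX7A2 (0.28 with it).

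The widely expressed isoforms COX6A1, COX6B1 and COX8A differed by 0.06, −0.04 and 0.10 (log2) under 6T and by −0.16, −0.09 and −0.12 under luciferase in the authors' deposited tables. COX6B2 had means of 13.3 and 8.69 in the 6T groups (log2 −0.61, p = 0.289) and 14.4 and 15.8 in the luciferase groups (log2 0.13, p = 0.883), with p from the authors' deposited tables. NDUFA4L2, at 3.74 to 15.9 in 6T A and 7.58 to 18.2 in 6T B, had a log2 fold change of 0.59 in the authors' deposited table (p = 0.464). At such counts changes of this size were not detectable. COX4I2, COX6A2, COX7A1, COX7B2 and COX8C stayed at 3.09 normalized counts or less in all libraries, and no fold is given for them.

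In complex V the F1 head showed its smallest p in ATP5D, the delta subunit of the central stalk. ATP5D was at 1517, 1761 and 1599.8 in 6T A and at 2033, 1764 and 1818 in 6T B, where the highest library of A lay just under the lowest of B. The authors' deposited log2 fold change was 0.20 (p = 0.161), and ATP5I, a membrane subunit, had the same value (log2 0.20, p = 0.188). Under luciferase the authors' deposited value for ATP5D had the opposite sign (log2 −0.20, p = 0.287). ATP5C1, the gamma subunit that turns inside the head, had the smallest p of complex V in the authors' luciferase table (log2 0.32, p = 0.163). Its limma value was 0.36, and 0.11 without Luciferase A3. The c subunit genes ATP5G1, ATP5G2 and ATP5G3 differed by 0.09, 0.07 and −0.11 under 6T and by −0.08, −0.13 and 0.04 under luciferase in the authors' deposited tables.

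The peripheral stalk holds the F1 head still while the rotor turns, and the median of its 4 genes ATP5F1, ATP5H, ATP5J and ATP5O was −0.04 (log2, B over A) under 6T and 0.23 under luciferase. ATP5O (p = 0.198) and ATP5F1 (p = 0.263) differed by 0.25 and 0.20 under luciferase in the authors' deposited table. ATP5F1 was at 1866, 1928 and 1655 in Luciferase A and at 2090.3, 2232 and 1958 in Luciferase B, without overlap. All 4 had a higher mean in Luciferase B, and 0 passed the test. With the GC correction in limma the median of the 4 was 0.03 under 6T and 0.07 under luciferase, where ATP5O had 0.27, ATP5F1 0.08, ATP5J 0.07 and ATP5H −0.06. Without Luciferase A3 it was 0.13 under luciferase.

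Counts of members whose 3 libraries of one condition lay beyond all 3 of the other leaned higher in B under 6T and lower under luciferase. Over all genes, 591 lay higher and 517 lower in B under 6T, and 909 and 1349 under luciferase. Whether the directions are opposite depends on A and B meaning the same condition in both tables, which the headers do not state. Under 6T, 12 of 90 members lay higher in B (4.21% of all genes did) and 3 lower (3.68% of all genes). The 12 were ATP5D, ATP5E, ATP5I, COX4I1, NDUFA7, NDUFA11, NDUFA13, NDUFAF3, NDUFB11, NDUFC1, NDUFS7 and UQCRQ, and the 3 were COX7C, SDHD and UQCRH. Under luciferase, 2 of 89 lay higher in B (6.46% of all genes) and 13 lower (9.59% of all genes). The 2 were ATP5F1 and NDUFA12, and the 13 included ATP5B, ATP5D, CYC1, NDUFB8, NDUFC1, NDUFS7, NDUFS8 and UQCR10. Members share libraries, so these counts do not rest on independent genes. The changes from A to B also moved with GC content, with a Spearman rho over the members of 0.40 under 6T and −0.75 under luciferase.

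The difference between the sgRNAs in the change from A to B was tested for each gene with limma, on the log2 scale. An adjusted p under 0.05 was found for 0 members (0% of all genes), the smallest being 0.483, and an unadjusted p under 0.05 for 14 of 89 (9.49% of all genes). Of these, SDHC had a positive difference (0.48) and 13 a negative one. The smallest unadjusted p was that of NDUFS7 (difference −0.53, adjusted p = 0.483 with limma), followed by ATP5D (−0.40) and NDUFA3 (−0.39). NDUFA11 (−0.29), COX4I1 (−0.31), COX5B (−0.33) and ATP5I (−0.29) were also among the 14, while COX8A (−0.22) and ATP5G2 (−0.20) were not. This difference had a Spearman rho of −0.73 with GC content over the members (−0.68 over all genes). With the GC correction it was −0.28 in NDUFS7, −0.12 in ATP5D, −0.19 in NDUFA3, −0.08 in NDUFA11 and −0.19 in ATP5I, against −0.26 in COX4I1, −0.31 in COX5B and 0.52 in SDHC. Of the 14, COX4I1, COX5B, NDUFS7 and SDHC still had an unadjusted p under 0.05, and 9 members did in all (4.61% of all genes). Without the correction, 3 of the 14 were still at that p without Luciferase B1 and 4 without Luciferase A3. Without 6T A1 5 were, and without 6T B1 6 were. The sign of this difference depends on A and B meaning the same condition in both tables, which the headers do not state.

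**Figure D4:**
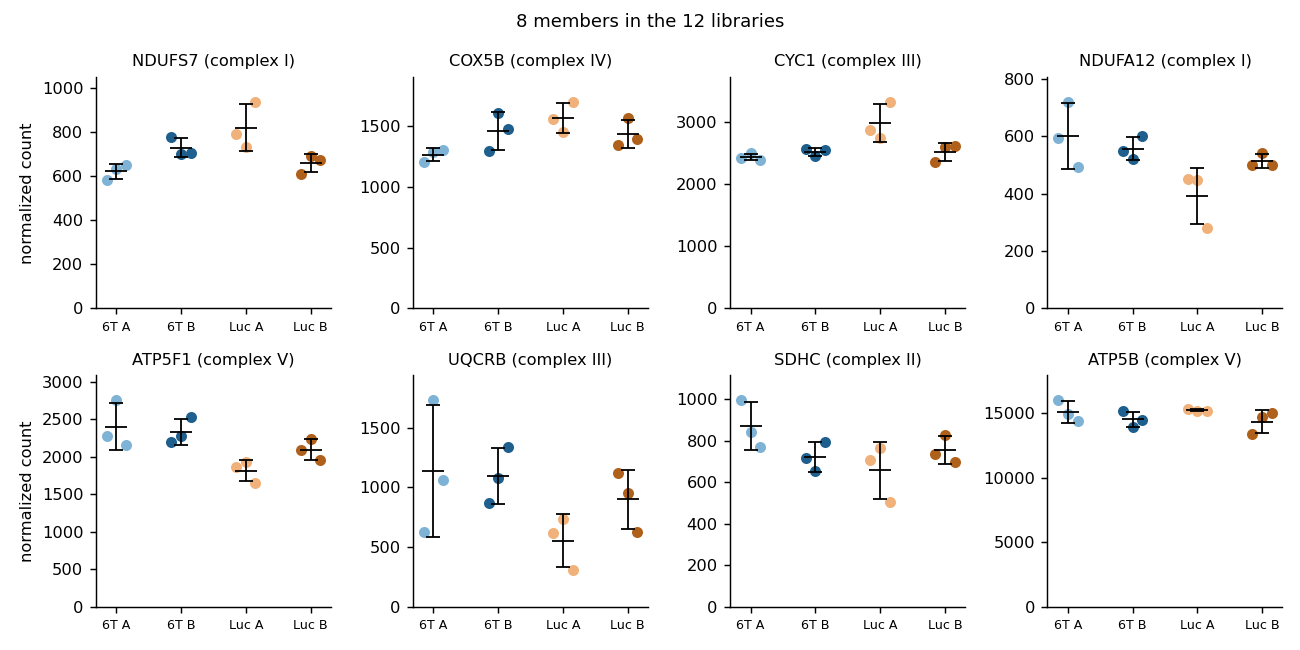
Normalized counts of 8 members in the 12 libraries, by group (Luc is Luciferase). Points are libraries and bars are mean and SD of 3; NDUFS7, COX5B and CYC1 lie higher and NDUFA12, ATP5F1 and SDHC lower in Luciferase A than in 6T A, while ATP5B stays between 13343 and 15988.

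Between the tables, members differed most in condition A. With the caveat that A may not name one condition in both tables, 0 of 89 members had an adjusted p under 0.05 for Luciferase A against 6T A with limma (0.0640% of all genes). At an unadjusted p under 0.05 there were 36 of 89 (31.5% of all genes), 20 of them higher (12.8% of all genes) and 16 lower in Luciferase A (18.7% of all genes). Libraries did not overlap for 31 members that lay higher in Luciferase A (17.1% of all genes) and 14 that lay lower (16.0% of all genes). Median log2 differences were 0.10 in complex I, −0.04 in complex II, 0.13 in complex III, −0.135 in complex IV, −0.02 in complex V and −0.37 in the NDUFAF assembly factors. This fit takes its spread from all 4 groups.

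Higher members at an unadjusted p included 3 core subunits of complex I. NDUFS7 differed by 0.39 (log2, limma adjusted p = 0.0631), NDUFS8 by 0.28 (adjusted p = 0.0943) and NDUFV1 by 0.24 (adjusted p = 0.117). CYC1, at 2421, 2494 and 2389 in 6T A against 2862, 2743 and 3317, differed by 0.28 (limma adjusted p = 0.0666). COX5B, at 1206, 1285 and 1306 against 1557, 1451 and 1700.0, differed by 0.31 (limma adjusted p = 0.0794), and COX4I1 by 0.26 (adjusted p = 0.0868). In each of these the 3 Luciferase A libraries lay above the 3 6T A libraries.

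Before a correction for GC content, lower members included the whole peripheral stalk of complex V, with a median log2 difference of −0.405. ATP5F1, at 2280.5, 2753 and 2161 in 6T A against 1866, 1928 and 1655 in Luciferase A, differed by −0.40 (limma adjusted p = 0.0620, the smallest of the members). ATP5O differed by −0.43 (adjusted p = 0.0751), ATP5J by −0.48 (adjusted p = 0.102) and ATP5H by −0.23 (adjusted p = 0.0959), all 4 without overlap. ATP5C1 of the F1 head was at 1965, 2582 and 2410.5 against 1676, 1944 and 1062 and differed by −0.61 (limma adjusted p = 0.0709). Without Luciferase A3 the difference was −0.35 in ATP5C1 and −0.24 in ATP5O.

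In complex I, NDUFA12 (log2 −0.63, limma adjusted p = 0.0651) and NDUFS1 (−0.52, adjusted p = 0.0731) were also lower in Luciferase A at an unadjusted p, without overlap. NDUFS1 was at 1440.3, 1304 and 1351 in 6T A against 1117, 1147 and 667 in Luciferase A, where A3 was far below the other libraries. Without Luciferase A3 the difference was −0.27 in NDUFS1 and −0.40 in NDUFA12. UQCRC2 differed by −0.35 (adjusted p = 0.0651), SDHC by −0.42 (adjusted p = 0.0942), COX7A2L by −0.30 (adjusted p = 0.0892) and UQCRB by −1.01 (adjusted p = 0.0938), and without that library SDHC had −0.24 and UQCRB −0.64. The subunits that lay higher and those that lay lower were thus found inside the same complexes.

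GC content moved with this difference. Over the 89 members the log2 difference of Luciferase A against 6T A had a Spearman rho of 0.79 and a Pearson r of 0.73 with the GC content of the transcript, and over all 13719 genes rho was 0.72. Genes here share libraries, so these are descriptions across genes. In library Luciferase A3, the 19 members with a GC content under 45% had a median deviation of −0.53 (log2) from their mean over libraries, the 46 between had −0.05 and the 24 at 55% or more had 0.26. In 6T A2 the same groups had 0.34, 0.05 and −0.04. The share of reads aligned at more than 1 place was 19.4% of the table's total in 6T A and 24.6% in Luciferase A, and its part in the result was not tested.

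With a correction for GC content in limma, members at an unadjusted p under 0.05 fell in number from 36 to 17 of 89, beside 16.8% of all genes. Of the 36, 11 were still at that p. ATP5E, ATP5L, NDUFB3, NDUFB4, NDUFB6 and UQCRHL were at it only after the correction. NDUFB4 (0.36, limma adjusted p = 0.128) then had the smallest p of the members. Without Luciferase A3, 17 of the 36 were still at that p. In that fit 14 of the 36 members moved by over 1.5 times, while 3 did without 6T A2 (ATP5J, NDUFS4 and UQCRB). The correction moved 30 of the 36 by over 1.5 times and turned the sign of ATP5D (0.23 before, −0.03 after). The difference of NDUFS7 was 0.14 after the correction (adjusted p = 0.367 with limma) and that of CYC1 was 0.07 (adjusted p = 0.574). ATP5F1 had −0.19 (adjusted p = 0.218), ATP5C1 −0.27 (adjusted p = 0.234), NDUFA12 −0.35 (adjusted p = 0.187), ATP5O −0.40 (adjusted p = 0.153), SDHC −0.48 and COX5B 0.27 (adjusted p = 0.198), and 0 members passed the adjusted threshold. The median of the peripheral stalk was −0.20. Its genes ATP5J (−0.20) and ATP5H (−0.03) were then no longer at an unadjusted p under 0.05. Upper quartile scaling, which raised the median log2 difference of all genes from −0.01 to 0.07, gave 5 members past an adjusted p of 0.05 with limma (ATP5SL, CYC1, NDUFA12, NDUFS6 and NDUFS7). Leaving out Luciferase A2 gave 8 (ATP5C1, ATP5F1, ATP5O, CYC1, NDUFA12, NDUFS1, NDUFS7 and UQCRC2), among 1041 genes in all. In both fits calls rose over all genes, from 9 in the main fit (0.0640%), so these counts do not set the members apart.

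**Figure D5:**
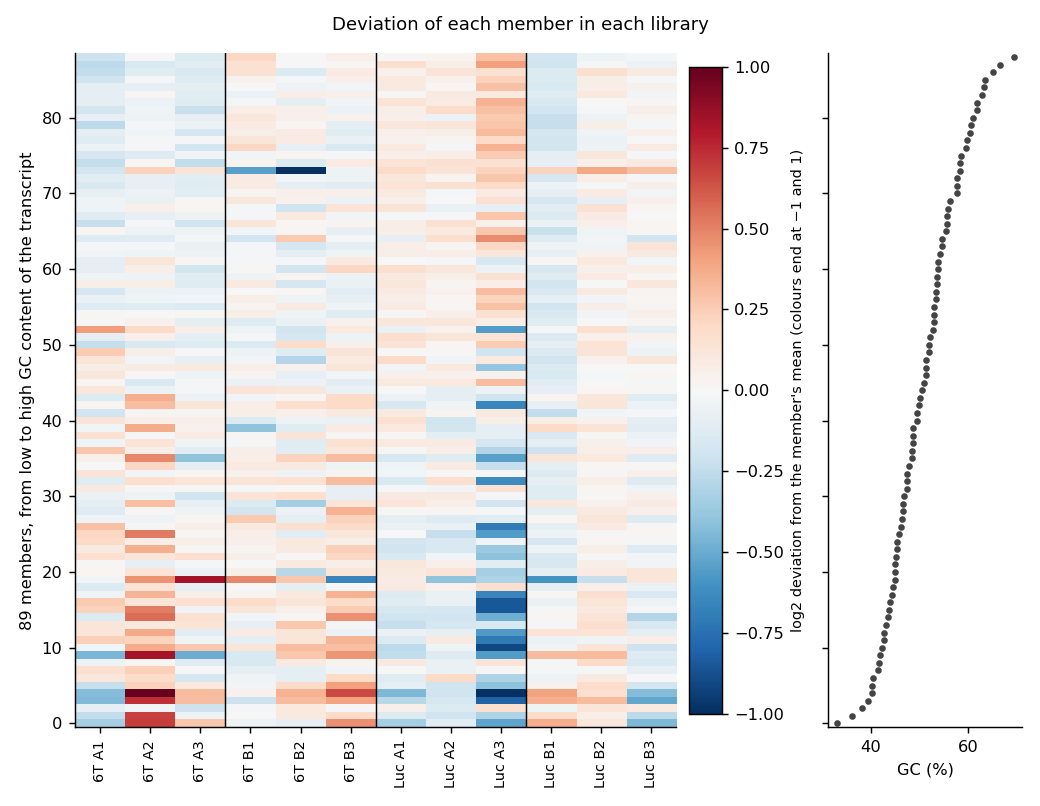
Log2 deviation of each of 89 members (vertical order, from low to high GC content of the transcript, with the GC content at the right) from its mean in each of 12 libraries (Luc is Luciferase). Red is above and blue below the member's mean; Luciferase A3 runs from blue at low GC to red at high GC (rho 0.75), and 6T A2 runs the other way (rho −0.67).

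In condition B, again with the meaning of B not tied between tables, the members differed less. With limma, 0 members had an adjusted p under 0.05 (0% of all genes) and 1 of 89 an unadjusted p under 0.05 (5.38% of all genes), COX6B2. It was at 8.36, 5.59 and 12.1 normalized counts in 6T B and 14.8, 16.8 and 15.7 in Luciferase B, without overlap (log2 0.85, limma adjusted p = 0.898). COX6B2 was the only member whose libraries lay higher (6.75% of all genes). It had as few as 4 reads in a library, and the Luciferase B libraries were deeper than those of 6T B. In 9 members all Luciferase B libraries lay lower (6.16% of all genes), namely ATP5D, ATP5H, COX5A, COX7A2, NDUFAF3, NDUFC1, NDUFS7, NDUFV2 and UQCRC2. The smallest p among them were those of NDUFC1 (log2 −0.16, limma adjusted p = 0.942) and ATP5D (log2 −0.17, adjusted p = 0.943). Median log2 differences were −0.04 in complexes I and III, 0.08 in complex II, −0.05 in complex IV and −0.09 in complex V, where 14 of 16 genes were lower. The Spearman rho with GC content was 0.23 over the members, and the interval lay within 1.5-fold for 80 of 89. With the GC correction in limma, ATP5C1 (−0.25), ATP5D (−0.16), NDUFAF3 (−0.16) and NDUFB10 (−0.14) were also at an unadjusted p under 0.05. COX6B2 remained there, and the smallest adjusted p of the members was 0.483.

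Genes that serve the same complexes from outside the name rule were described from lists. Of 39 further assembly factors, 38 with a known length had a median level of 387 per kb, and 20 of 39 were higher in B under each sgRNA, with 0 past the authors' adjusted threshold. PET100, which helps build complex IV, had the smallest p among them under 6T, with means of 86.7 in A and 124 in B (log2 0.52, p = 0.0220, adjusted p = 1.00 in the authors' deposited table). SCO1, which delivers copper to complex IV, had −0.22 (p = 0.143 in the authors' deposited table). Under luciferase they were COX19, another copper protein (−0.43, p = 0.0857), and NUBPL, an iron-sulfur factor of complex I (0.34, p = 0.148), all in the authors' deposited tables.

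Of 19 regulators of respiratory genes, 16 were lower in B under 6T (median log2 −0.10), beside 8116 of 14051 genes in all. Under luciferase 12 were higher in B (median 0.11), beside 6897 of 14087 genes in all, and 0 passed the threshold in either. These counts carry no GC correction. In the authors' deposited tables the smallest p were those of ESRRA, a nuclear receptor (0.19, p = 0.229), and TEFM, a mitochondrial transcription elongation factor (−0.21, p = 0.232), under 6T, and of TFAM, which packages mitochondrial DNA (0.32, p = 0.125), and TEFM (0.37, p = 0.130) under luciferase. Of 19 genes of the citric acid cycle and pyruvate dehydrogenase, 9 were higher in B under each sgRNA and 0 passed. PC (0.18) and IDH2 (0.16) had the smallest p under 6T and DLD (0.45) and SUCLA2 (0.69) under luciferase in the authors' deposited tables. Of 4 subunits and carriers named otherwise, which included cytochrome c (CYCS) and the synthase inhibitor ATPIF1, 0 passed. ATPIF1 (0.15) and USMG5 (−0.13) had the smallest p under 6T, and USMG5 (0.22) and C14orf2 (0.10) under luciferase.

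Reads of some members cannot be assigned firmly. Of the 95 genes, 46 have a named pseudogene in GENCODE release 29, 163 in all, with 17 for COX6C and 12 each for NDUFA5 and NDUFB4, and reads that align at more than 1 place were not counted to genes. Whether the counting used strand is not stated, and NDUFA6, NDUFB2 and NDUFV2 have antisense partners in the tables, with group means of at most 34.1 normalized counts.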

How the data were processed

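PolyA RNA of 12 HEK293T samples in 4 groups of 3 was measured. Per the submitters' processing notes, the authors used STAR, HTSeq and DESeq with the genome build hg38, and versions are not given in the sources used here. Per the file headers, the deposited signal values are mean normalized read counts, over both conditions and for A and B. The deposited ratio column is the fold change of B over A, and the deposited log2 column is its log2. The authors' test is deposited as a p-value and an adjusted p-value per gene. Rows that name no gene were left out. They held 16.3% to 17.8% (no feature), 1.33% to 1.4% (ambiguous) and 19.4% to 24.6% (aligned more than once) of a condition's total.

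Whole reads of the 3 libraries per condition were recovered from the deposited means, of up to 15 digits, for 99.94% to 100.00% of genes above 0. On simulated means, 100.00% of the solved values were right. These means were drawn with the recovered size factors and with less spread between libraries than some members show. Errors from a wider spread or from the size factors could therefore not appear in them. Recovered size factors were within 0.0112% of those that the median of ratios gives over all 12 libraries. Against factors taken by table, they were off by up to 36.7%, so one normalization was shared and levels were compared between tables.

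An adjusted p under 0.05 in the authors' test was the result within a table. Across tables, and beside the authors' test, limma 3.58.1 (R 4.3.3, trend on the mean) was run on log2 of normalized counts plus a pseudocount of 1, over all genes with a mean of 10 or more, with Benjamini-Hochberg adjustment over them. Its fold changes are on that scale. Within a table the fit used that table's libraries, and between tables all 4 groups. It was tested on simulated data. The letters of the NRF1 motif were shortened to 8 after a longer form had been searched. Fold changes by complex are ratios of group means. Python 3.11.15 was used for the rest. Alternatives were a pseudocount of 5, no filter, upper quartile scaling, a GC correction, other sets of groups in the fit, and leaving out each library. A fit of both B against A comparisons over all 4 groups was added after the data were seen.

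The members, gene lists and tests were chosen with earlier results of these data known. Named genes were the core subunits of complex I, all of complexes II and III, isoform pairs, the 3 members with the smallest p in complexes I, IV and V of each comparison, the highest and lowest level of each complex, and the 2 genes with the smallest p per list. One gene of that rule is not reported here. Genes named beyond it were chosen after their values were seen. Marker lists of fibroblasts (556 to 736 normalized counts summed per library), striated muscle (51.7 to 87.0) and neurons (5695 to 7444) were summed too.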

Additional observations from a re-analysis of the deposited data

How the results depend on the processing

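Over the 5 comparisons, the number of members past the adjusted threshold and their median log2 fold change were recomputed under 108 alternatives. Of these, 100 kept the count within 1.5 times or the median within the spread between replicates. Under a GC correction the median was 0.0508 for 6T B against A and −0.0764 for the difference between sgRNAs. Under upper quartile scaling it was 0.13 for Luciferase against 6T in A and −0.0988 for the difference, and 5 members were called for Luciferase against 6T in A, where scaling also raised the calls over all genes from 9 to 677. Leaving out single libraries gave 0 to 8 calls in that comparison and medians of 0.0104 to 0.0707. The fit with 8 calls also had more calls over all genes. The medians ranged from −0.0104 to 0.0717 for 6T B against A, from −0.0605 to 0.00128 for luciferase, from −0.0864 to 0.0123 for Luciferase against 6T in B and from −0.0607 to 0.0184 for the difference, with 0 calls in each. The causes were not tested. The GC correction turned the sign of 20 of 90 members for 6T B against A, 18 of 89 for luciferase, 22 and 8 of 89 for Luciferase against 6T in A and in B, and 19 of 89 for the difference. Of these, ATP5D in A had an unadjusted p under 0.05 before it. Upper quartile scaling turned 2 to 9 members per comparison. The fit of the difference on only its own groups is the same fit, and gave no separate value. No paired analysis was possible because the recovered libraries carry no replicate number. With 3 libraries a group, the standard error of a member's log2 fold change was about 0.10, so small differences were not detectable.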
